A study of Homo sapiens with 18 samples.

Results

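System Xc- and the enzymes that make and break down glutathione were examined through 10 genes, SLC7A11, SLC3A2, GCLC, GCLM, GSS, GSR, CHAC1, CHAC2, GGCT and GGT1, chosen by their known roles in the uptake of cystine and in the glutathione cycle. The choice was made with earlier results of these data known. All 10 were present among the 58302 genes of the count table, and all 10 were among the 16751 genes with enough counts to be tested. RNA-seq was performed in U87MG cells, an established human glioblastoma line, with 2 control libraries and 2 libraries of cells treated with Erastin at 10 μM for 72 h. The control libraries are titled U87-WT (wild type). The labels give the control cells as grown under normal conditions and name no vehicle, while the study gives DMSO for the controls of another assay. The labels number the replicates, with no statement of the culture, day or passage they came from, so p-values measure the spread between these libraries, which may be technical in part. All of the cells came from 1 cell line.

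System Xc- exchanges extracellular cystine for intracellular glutamate. Its light chain, encoded by SLC7A11, carries the amino acids, and its heavy chain, encoded by SLC3A2, brings the light chain to the plasma membrane. Inside the cell, cystine is reduced to cysteine, which glutamate-cysteine ligase joins to glutamate before glutathione synthetase adds glycine. Glutathione then serves glutathione peroxidase 4 in the reduction of lipid peroxides, and its loss is known to precede ferroptosis, an iron-dependent cell death. Because system Xc- is the target of Erastin, the comparison asks how the transcripts of this pathway stood in cells treated with this compound. Cystine import was not measured here.

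Counts on genes summed to 31513519 and 31259173 for control replicates 1 and 2, and to 29412656 and 30925361 for Erastin replicates 1 and 2. Calls of higher or lower needed both an adjusted p under 0.05 by edgeR's quasi-likelihood test and a log2 change of 1 or more in that direction. By this rule 6.24% of the tested genes were called higher and 9.34% were called lower. At an adjusted p under 0.05 and any size of change, 23.2% were higher and 23.7% were lower. In 36.7% of tested genes the Erastin libraries were both above the controls, and in 36.9% both were below, and the median log2 fold change of all tested genes was close to 0 (-0.0026). Of the glial and glioma markers, VIM and CD44 were abundant in every library, GFAP had 41 to 81 counts, S100B had at most 2 counts, SOX2 at most 6, and AQP4 was at 0, so several astrocyte markers were near absent in these cells. Of the 6 tested markers of this list, 4 were lower under Erastin at an adjusted p under 0.05 by edgeR. NES, a neural stem cell filament, went from 1277 and 972 counts to 105 and 77 (log2 fold change -3.62), and CHI3L1, a secreted glycoprotein, from 5639 and 6833 counts to 1266 and 1324 (log2 fold change -2.26), and both were called lower. The 9 genes that mark other cell types summed to between 1.93 and 4.56 TPM per library (TPM divides counts by exon length and scales each library to the same sum), and 2 of them were at 0 throughout. PECAM1, an endothelial marker among these, went from 138 and 188 counts to 31 and 33 and was called lower (log2 fold change -2.34). The part of these shifts in the results was not tested.

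Of the 10 genes, 4 were called higher in Erastin-treated cells (SLC7A11, CHAC1, SLC3A2 and GGT1), and 1 was called lower (GGCT). Another 4 (GCLM, GCLC, GSS and GSR) rose with an adjusted p under 0.05 but by less than the fold threshold, and CHAC2 did not pass the test. The median log2 fold change over the 10 genes was 0.90. Groups did not overlap in 9 genes, with 8 higher and 1 lower under Erastin, and overlapped in 1. Over all tested genes, 6.24% were called higher and 9.34% lower. Both Erastin libraries were above both controls in 36.7% of tested genes and below them in 36.9%, so lack of overlap was common. In bulk RNA, a change in every cell and a change in the share of cells that express a gene cannot be told apart.

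**Figure D1:**
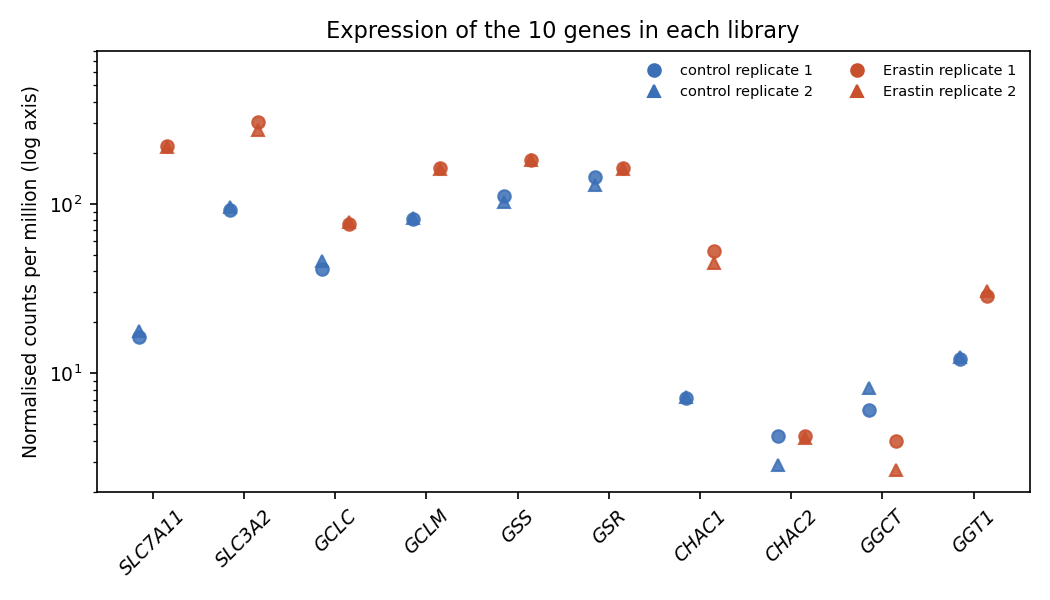
Normalised counts scaled to a common library size (CPM, log axis) of the 10 genes in each of the 4 libraries; circles are replicate 1 and triangles replicate 2, with control in blue and Erastin in orange. The Erastin libraries sit far above the controls for SLC7A11 and CHAC1, slightly above for GSR, among them for CHAC2 and below them for GGCT.

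SLC7A11 (ENSG00000151012), the transport chain of system Xc-, lies on the reverse strand of chromosome 4 of GRCh38 from 138164097 to 138242349. It had 504 and 550 counts in control cells and 6535 and 6783 counts in Erastin-treated cells. The controls were low and alike, the Erastin libraries were high and alike, and nothing lay between them. Scaled to a common library size (CPM), this was 17.1 ± 0.864 CPM in control cells and 217 ± 1.84 CPM in Erastin-treated cells (SD, n = 2 each), a rise of 12.7-fold. The log2 fold change was 3.67 (standard error 0.0789, 95% interval 3.49 to 3.84, adjusted p = 1.66e-10 by edgeR), and only 0.519% of tested genes had a higher value. With 2 libraries per group, the smallest two-sided p of an exact permutation test is 0.33, and the adjusted p-values of all genes therefore use a variance estimated over many genes.

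SLC3A2 (ENSG00000168003, chromosome 11, 62856102 to 62888875, forward strand), the heavy chain, had 2827 and 2976 counts in control cells and 9049 and 8518 counts in Erastin-treated cells. Both treated libraries stood well above both controls. Its log2 fold change was 1.61 (standard error 0.0747, 95% interval 1.44 to 1.77, adjusted p = 1.20e-08 from edgeR), or 3.05-fold. The heavy chain therefore rose by less than the light chain, and the ratio between them moved. In TPM, SLC7A11 stood at 0.0957 and 0.0992 of SLC3A2 in control cells and at 0.388 and 0.428 after Erastin. The log2 ratio changed by 2.06, with SDs of 0.0367 in control and 0.0997 in Erastin (exact two-sided permutation p = 0.33, the smallest that 2 against 2 libraries can give).

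The size of this ratio depended on the length used, although its change did not. SLC7A11 has 9645 exonic bases but 1503 coding bases. When counts were divided by coding length, SLC7A11 was at 0.29 and 0.30 of SLC3A2 in the controls and at 1.17 and 1.29 in the Erastin libraries. The light chain thus stayed below the heavy chain in every library per exon length and passed above it under Erastin only per coding length. The counts divided by coding length were those of all exons, untranslated parts included. That scale therefore raises genes with long untranslated parts and does not show which chain had more transcripts. Which transcripts of either gene were present was not measured here.

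Glutamate-cysteine ligase, the rate-limiting enzyme of glutathione synthesis, consists of a catalytic subunit encoded by GCLC and a modifier subunit encoded by GCLM. GCLC (ENSG00000001084, chromosome 6, 53497341 to 53616970, reverse strand) had 1267 and 1423 counts in control cells and 2271 and 2469 counts in Erastin-treated cells. GCLM (ENSG00000023909, chromosome 1, 93885205 to 93909456, reverse strand) had 2501 and 2557 counts in control cells and 4872 and 5027 counts in Erastin-treated cells. For both subunits the groups were well apart, and the Erastin libraries of GCLM held close to the doubling at which a gene is called. The log2 fold change of GCLC was 0.82 (standard error 0.0823, 95% interval 0.64 to 1.00, adjusted p = 6.92e-06 from edgeR). That of GCLM was 0.98 (standard error 0.0669, 95% interval 0.83 to 1.12, adjusted p = 3.09e-07 from edgeR), just under the threshold, and it reached 1.03 and was called when library totals replaced the TMM factors. The TPM of GCLC was 0.324 and 0.356 of that of GCLM in control libraries and 0.299 and 0.315 in Erastin libraries. The catalytic to modifier ratio was thus slightly lower in both treated libraries, by 0.15 on the log2 scale (exact permutation p = 0.33, the smallest possible). This difference was 0.082 without control replicate 2, and so depended on that library.

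GSS (ENSG00000100983, chromosome 20, 34928430 to 34955817, reverse strand) encodes glutathione synthetase, the enzyme of the last step of synthesis. It had 3406 and 3175 counts in control cells and 5453 and 5683 counts in Erastin-treated cells, again with the treated libraries on top. Its log2 fold change was 0.77 (standard error 0.0704, 95% interval 0.61 to 0.92, adjusted p = 3.54e-06 from edgeR). The ratio of GCLC to GSS in TPM was 0.0845 and 0.102 in controls and 0.0946 and 0.0987 in Erastin libraries, and per coding length it was 0.281 and 0.339 in controls and 0.315 and 0.329 in Erastin libraries. The treated values fell between the control values, so no change in this ratio was detectable (exact permutation p = 1). With 2 libraries per group, this p cannot show that the ratio stayed the same.

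GSR (ENSG00000104687, chromosome 8, 30678061 to 30727926, reverse strand) encodes glutathione reductase, which regenerates reduced glutathione from its oxidised form with NADPH. It had 4423 and 4017 counts in control cells and 4871 and 5069 counts in Erastin-treated cells. The groups did not overlap, but they lay close together. GSR changed by 0.24 on the log2 scale (standard error 0.0732, 95% interval 0.08 to 0.40, adjusted p = 0.0169 from edgeR). The adjusted p by edgeR was 0.0967 without control replicate 2, 0.101 without Erastin replicate 1 and 0.0789 without Erastin replicate 2, so the test was no longer passed without any of these 3 libraries. The log2 fold change itself was 0.16, 0.23 and 0.25 in the same order.

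**Figure D2:**
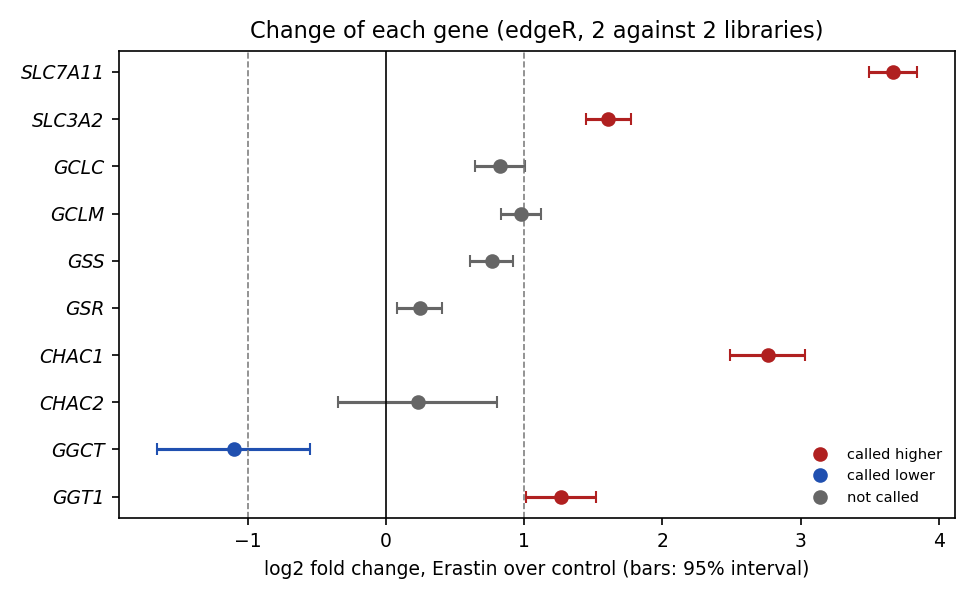
Log2 fold change of each of the 10 genes, Erastin over control, by edgeR with 2 libraries per group; bars are 95% intervals and dashed lines mark the threshold of 1 in either direction. SLC7A11 (3.67) and CHAC1 (2.76) lie farthest to the right, the interval of CHAC2 spans 0, and GGCT (-1.10) is the gene on the left.

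CHAC1 and CHAC2 encode gamma-glutamylcyclotransferases that cleave glutathione inside the cell. CHAC1 (ENSG00000128965, chromosome 15, 40952962 to 40956519, forward strand) is known as an inducible gene of amino acid and endoplasmic reticulum stress. It had 218 and 226 counts in control cells and 1575 and 1414 counts in Erastin-treated cells, with the treated libraries far above the controls. The rise of CHAC1 was 2.76 on the log2 scale (standard error 0.124, 95% interval 2.49 to 3.03, adjusted p = 8.80e-09 from edgeR), or 6.78-fold, and 1.11% of tested genes had a higher value. CHAC2 (ENSG00000143942, chromosome 2, 53767792 to 53775196, forward strand), known as the constitutive paralog, had 131 and 90 counts in control cells and 127 and 131 counts in Erastin-treated cells. The groups overlapped, and control replicate 1 was as high as the Erastin libraries. For CHAC2 the log2 fold change was 0.23 (standard error 0.262, 95% interval -0.34 to 0.80, adjusted p = 0.509 from edgeR). The interval leaves room for a small fall or a moderate rise. CHAC1 transcripts were 1.07 and 1.61 times those of CHAC2 in TPM in control cells and 7.96 and 6.93 times after Erastin, a change of 2.50 in the log2 ratio (exact permutation p = 0.33, the smallest possible).

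**Figure D3:**
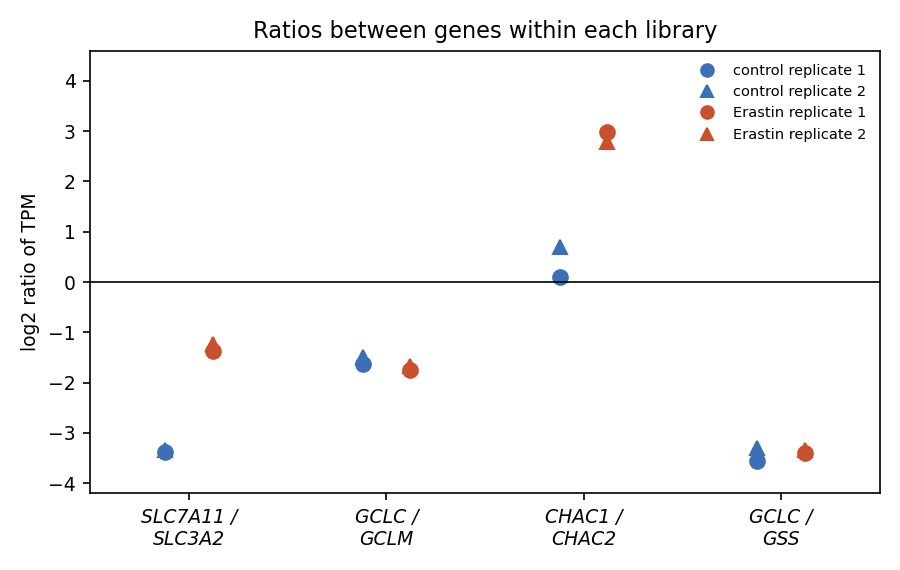
Log2 ratio of TPM between 4 pairs of genes in each library; circles are replicate 1 and triangles replicate 2, with control in blue and Erastin in orange. The ratios of SLC7A11 to SLC3A2 and of CHAC1 to CHAC2 rise by 2.06 and 2.50, that of GCLC to GCLM is lower by 0.15, and that of GCLC to GSS overlaps between groups.

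GGT1 and GGCT act on the other steps of the gamma-glutamyl cycle. GGT1 (ENSG00000100031, chromosome 22, 24583750 to 24629005, forward strand) encodes a cell surface gamma-glutamyltransferase that cleaves extracellular glutathione. It had 373 and 388 counts in control cells and 858 and 961 counts in Erastin-treated cells, with both treated libraries higher. GGT1 rose by 1.26 on the log2 scale (standard error 0.116, 95% interval 1.01 to 1.52, adjusted p = 3.37e-06 from edgeR), and the call was lost with glmTreat, which tests against the fold threshold itself (adjusted p = 0.0703). Of the 31-base words of GGT1 transcripts, 63.7% also occur in transcripts of other genes. Most were shared with an unnamed gene, ENSG00000286070 (52.1% of words), which is not among the genes counted, and fewer with 2 other unnamed genes, ENSG00000290983 (23.7%) and ENSG00000290711 (21.1%), and with the related genes GGT3P (17.0%), GGT2P (16.2%) and GGTLC2 (14.0%). Reads on more than 1 gene or place were left out by the counting, so the GGT1 counts may come from a part of its sequence and are uncertain. The words were compared between transcripts, and a word shared by transcripts of the same place need not remove a read. The 63.7% is therefore not a share of reads lost, and how many reads were removed was not measured here. GGT1 also shares 306 exonic bases with SNRPD3.

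GGCT (ENSG00000006625, chromosome 7, 30496621 to 30504844, reverse strand) encodes a cyclotransferase that releases 5-oxoproline from gamma-glutamyl amino acids. It had 187 and 253 counts in control cells and 119 and 84 counts in Erastin-treated cells. Both treated libraries were below both controls, with a wide spread within each group. GGCT changed by -1.10 on the log2 scale (standard error 0.253, 95% interval -1.66 to -0.55, adjusted p = 0.00369 from edgeR). The fold change was -0.89 without control replicate 2 and -0.84 without Erastin replicate 2, so the call at the fold threshold was lost without either library, as it was with glmTreat (adjusted p = 0.906). GGCT shares 441 exonic bases, 27.6% of its exons, with an unnamed gene that had 0 counts in every library, and reads there were left out by the counting.

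Of the other genes, SLC7A11 overlaps its antisense gene SLC7A11-AS1 over 865 exonic bases. Strand was not used in the counting. The antisense gene had 3 and 11 counts in controls and 15 and 44 in Erastin libraries, few beside those of SLC7A11. GCLC shares 529 exonic bases with an unnamed gene on the same strand, ENSG00000231683, which had 0 to 3 counts per library, and 7 with its antisense gene GCLC-AS1. Of the 31-base words, 12.3% for SLC7A11 and 11.9% for GCLC also occur in transcripts of other genes. For CHAC1 and CHAC2, 0% of the 31-base words occurred in transcripts of other genes.

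The order of the levels was compared in TPM within each condition. Because TPM was higher under Erastin for the median tested gene (by 0.19 on the log2 scale), changes are not read from it. In control cells the order ran from GSS at 192 ± 5.92 TPM (SD, n = 2) through GSR at 146 ± 7.19 TPM, SLC3A2 at 62.8 ± 3.46 TPM and GCLM at 52.3 ± 1.80 TPM. Per exon length, glutathione synthetase and reductase were thus the most abundant of the 10 in control cells. GCLC at 17.8 ± 1.80 TPM and GGCT at 15.5 ± 3.57 TPM followed and overlapped between libraries. Then came CHAC1 at 12.1 ± 0.536 TPM, GGT1 at 9.62 ± 0.449 TPM and CHAC2 at 9.35 ± 2.28 TPM, of which GGT1 and CHAC2 overlapped. SLC7A11 was the lowest of the 10 per exon length, at 6.13 ± 0.493 TPM.

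In Erastin-treated cells GSS stayed at the top per exon length at 372 ± 7.28 TPM, followed by SLC3A2 at 218 ± 20.0 TPM, which had passed GSR at 197 ± 4.06 TPM. GCLM was at 117 ± 3.13 TPM. CHAC1 at 93.6 ± 11.7 TPM and SLC7A11 at 88.8 ± 1.99 TPM overlapped. Both had moved up past GCLC, which was at 36.0 ± 0.372 TPM. GGT1 at 26.3 ± 0.827 TPM, CHAC2 at 12.6 ± 0.337 TPM and GGCT at 8.23 ± 2.39 TPM closed the order. Per exon length, SLC7A11 thus went from last to sixth by mean and GGCT from sixth to last. The order depended on the length used. Per kilobase of coding length, an order computed after the data were seen, GCLM was first in every library, with 3043 and 3111 counts in controls and 5927 and 6116 in Erastin libraries. GSS stood below GCLM in every library on that scale, with 2315 and 2158 counts in controls and 3707 and 3863 in Erastin libraries. SLC7A11 was sixth in both controls, at 335 and 366 counts per kilobase, and second in both Erastin libraries, at 4348 and 4513. The counts were again those of all exons, so this order raises genes with long untranslated parts. GCLM, for example, has 5420 exonic but 822 coding bases.

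**Figure D4:**
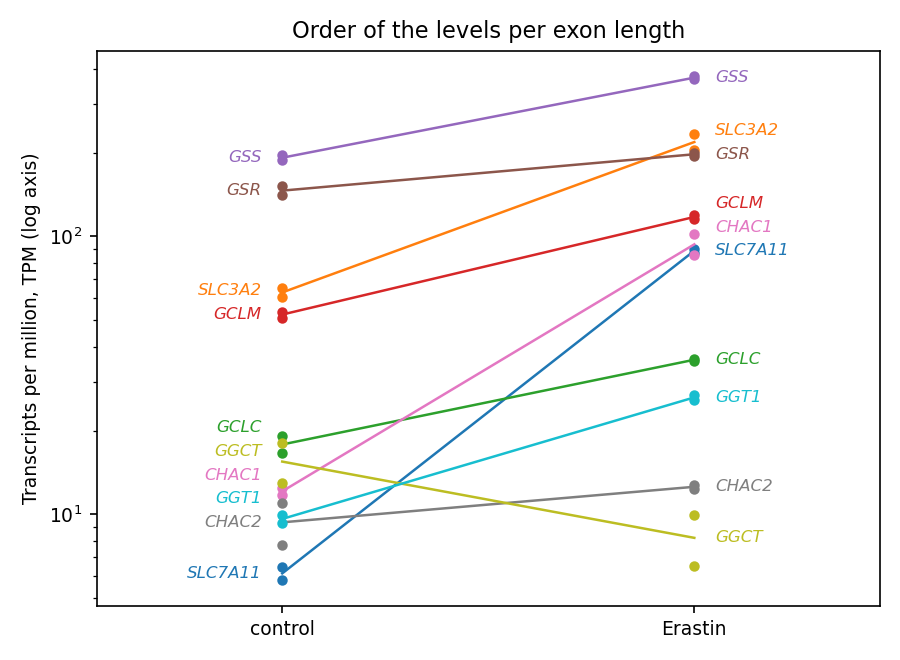
TPM (log axis) of the 10 genes in control and Erastin-treated cells; points are libraries, lines join the means, and names are spread apart where they would collide. SLC7A11 holds the lowest place in control cells (6.13 TPM) and lies beside CHAC1 in Erastin-treated cells, where GGCT is lowest (8.23 TPM); slopes are not fold changes, since TPM was shifted upward under Erastin.

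Promoters were available for 6 of the 10 genes (SLC3A2, GCLC, GCLM, CHAC1, CHAC2 and GGT1) in RefSeq sequences of GRCh38.p14, each 300 bases long from 250 bases before to 50 after an annotated start. SLC7A11, GSS, GSR and GGCT were not among them. They were searched on both strands for the antioxidant response element bound by NRF2 (TGACNNNGC), the C/EBP-ATF response element bound by ATF4 with C/EBP proteins (TGATGNAA), and the cAMP response element (TGACGTCA). The first and the last of these begin with the same 4 letters and can overlap; no promoter of the 6 genes held the last. Over 35116 RefSeq promoters of this length, 13.3% held the first, 3.62% the second and 1.85% the third. The promoters of SLC3A2, GCLM, CHAC1 and CHAC2 are shown because they set the heavy chain, the ligase subunit with the larger change and the paralogs with unlike changes side by side, written 5′ to 3′ on the strand of the gene with matches in capitals.
SLC3A2, chr11:62881449-62881748, forward strand: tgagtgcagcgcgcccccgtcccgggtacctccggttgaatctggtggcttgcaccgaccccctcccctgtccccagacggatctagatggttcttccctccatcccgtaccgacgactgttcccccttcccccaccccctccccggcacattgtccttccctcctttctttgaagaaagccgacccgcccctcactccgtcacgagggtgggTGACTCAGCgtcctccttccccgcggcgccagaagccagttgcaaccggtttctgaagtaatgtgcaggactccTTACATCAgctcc
GCLM, chr1:93909381-93909680, reverse strand: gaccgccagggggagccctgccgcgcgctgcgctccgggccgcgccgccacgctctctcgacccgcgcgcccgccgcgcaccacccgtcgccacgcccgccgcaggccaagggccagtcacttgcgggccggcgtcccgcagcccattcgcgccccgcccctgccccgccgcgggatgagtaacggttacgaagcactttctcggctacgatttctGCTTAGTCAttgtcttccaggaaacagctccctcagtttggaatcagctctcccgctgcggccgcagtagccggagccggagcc
CHAC1, chr15:40953221-40953520, forward strand: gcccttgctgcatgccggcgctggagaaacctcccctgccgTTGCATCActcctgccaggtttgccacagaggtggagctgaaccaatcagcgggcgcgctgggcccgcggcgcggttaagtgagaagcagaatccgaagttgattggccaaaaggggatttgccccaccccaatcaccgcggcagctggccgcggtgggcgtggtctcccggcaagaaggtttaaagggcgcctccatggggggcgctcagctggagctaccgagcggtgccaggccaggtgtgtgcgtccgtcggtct
CHAC2, chr2:53767533-53767832, forward strand: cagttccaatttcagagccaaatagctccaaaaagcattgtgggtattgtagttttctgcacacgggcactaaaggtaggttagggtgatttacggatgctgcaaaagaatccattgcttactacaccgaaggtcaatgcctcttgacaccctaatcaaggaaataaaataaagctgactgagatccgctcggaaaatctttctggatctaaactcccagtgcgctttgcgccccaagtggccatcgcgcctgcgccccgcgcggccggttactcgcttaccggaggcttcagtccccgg

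In SLC3A2 the antioxidant response element lay 37 to 29 bases before the start, and a C/EBP-ATF element on the opposite strand lay 37 to 44 bases after it. This was 1 of 3 RefSeq starts of SLC3A2, and the other two held no match. GCLM held an antioxidant response element on the opposite strand, 34 to 26 bases before its start. CHAC1 held a C/EBP-ATF element on the opposite strand, 209 to 202 bases before its start, whereas neither of the 2 promoters of CHAC2 held any of the 3 motifs. Of the 2 GGT1 promoters, 1 held an antioxidant response element on the opposite strand, 29 to 21 bases before the start. The GCLC promoter held none. A match describes the letters of the sequence only, and the counts do not show which start was used.

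Genes around this pathway were examined in 8 lists with 86 genes, of which 85 were in the table and 60 were tested. In all, 10 were called higher and 3 lower, and their median log2 fold change was 0.38. At an adjusted p under 0.05 and any size of change, 38 of the 60 were higher and 11 were lower. Another 12 of the 85 had 0 counts in every library. The counts are set beside the shares over all tested genes given above, and no set test was run. The lists were chosen with earlier results of these data known, so an excess over those shares is no independent evidence.

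SLC3A2 is also the heavy chain of other amino acid transporters, and of their 4 tested light chains 2 were called higher and none lower (median log2 fold change 1.12). SLC7A5, the light chain of the large neutral amino acid transporter LAT1, had 2294 and 1868 counts in controls and 7265 and 7044 in Erastin libraries. By edgeR it changed by 1.79 ± 0.0979 on the log2 scale (SE, adjusted p = 4.70e-08), so it rose together with SLC7A11 and SLC3A2, by less than the first. SLC7A7, a light chain that carries cationic amino acids, had 20 and 20 counts in controls and 109 and 86 in Erastin libraries. By edgeR it changed by 2.29 ± 0.364 on the log2 scale (SE, adjusted p = 2.80e-04), from a low level.

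Of 7 tested other transporters of cystine, cysteine and glutamate, none was called higher by edgeR and 2 were called lower, with a median log2 fold change of 0.37; at an adjusted p under 0.05 and any size, 4 were higher. SLC1A3, a glial transporter that takes up glutamate, had 1741 and 1725 counts in controls and 307 and 326 in Erastin libraries. By edgeR it changed by -2.45 ± 0.103 on the log2 scale (SE, adjusted p = 5.34e-09). SLC1A1, which takes up glutamate and cysteine, had 1312 and 1370 counts in controls and 575 and 635 in Erastin libraries. By edgeR it changed by -1.14 ± 0.100 on the log2 scale (SE, adjusted p = 2.40e-06), a call lost with glmTreat (adjusted p = 0.268). Transcripts of these 2 carriers thus fell in the libraries where those of SLC7A11 rose. Transport of glutamate was not measured here. SLC1A2, another glutamate carrier of this list, was not called, with 52 and 47 counts in controls and 50 and 33 in Erastin libraries. Its log2 fold change was -0.24 (edgeR adjusted p = 0.651).

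Among the enzymes that use glutathione, 1 of 4 tested glutathione peroxidases was called higher (median log2 fold change 0.56). At an adjusted p under 0.05 by edgeR and any size, 3 were higher and none lower. GPX1, under the fold threshold, had a log2 fold change of 0.83 (edgeR adjusted p = 1.17e-05). The gene called was GPX3, the secreted peroxidase, with 48 and 23 counts in controls and 128 and 157 in Erastin libraries. By edgeR it changed by 2.00 ± 0.354 on the log2 scale (SE, adjusted p = 6.23e-04), and without control replicate 1 by 2.64. GPX4, which reduces lipid peroxides and is the peroxidase tied to ferroptosis, had 7026 and 6682 counts in controls and 8580 and 8071 in Erastin libraries. It rose by 0.29 ± 0.0738 on the log2 scale (SE, edgeR adjusted p = 0.00684), far under the threshold. Without Erastin replicate 1 it was 0.21 and no longer passed the test (edgeR adjusted p = 0.129).

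None of the 12 tested glutathione transferases was called in either direction (median log2 fold change 0.42), while 6 were higher and 2 lower at an adjusted p under 0.05 by edgeR. MGST1, a microsomal transferase with peroxidase activity, had a log2 fold change of 0.73 (edgeR adjusted p = 5.77e-06) and was among the transferases with the highest level. GSTO1, an omega class transferase, had a log2 fold change of 0.52 (edgeR adjusted p = 9.07e-05). Of 7 glutaredoxins and glyoxalases, 1 was called higher (median log2 fold change 0.06), while 3 were higher and 3 lower at an adjusted p under 0.05 by edgeR. The lower ones were GLO1, ESD and GLRX5, with log2 fold changes of -0.69, -0.51 and -0.46. GLRX2, a glutaredoxin of mitochondria and nucleus, had 228 and 252 counts in controls and 516 and 568 in Erastin libraries, a log2 fold change of 1.18 ± 0.141 (SE, edgeR adjusted p = 2.96e-05; call lost with glmTreat, adjusted p = 0.314).

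Of 7 genes of glutathione transport, 1 was called lower (median log2 fold change -0.13), while 3 were higher and 2 lower at an adjusted p under 0.05 by edgeR. ABCC3, an exporter of organic anions and conjugates, had 2115 and 1959 counts in controls and 889 and 893 in Erastin libraries, a log2 fold change of -1.19 ± 0.0895 (SE, edgeR adjusted p = 6.89e-07; call lost with glmTreat, adjusted p = 0.0985). None of 3 tested genes of other steps of glutathione breakdown was called by edgeR, while 2 were higher and 1 lower at an adjusted p under 0.05 and any size. GGT7, a relative of GGT1, had a log2 fold change of -0.32, and LAP3, a leucine aminopeptidase, had 0.37.

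**Figure D5:**
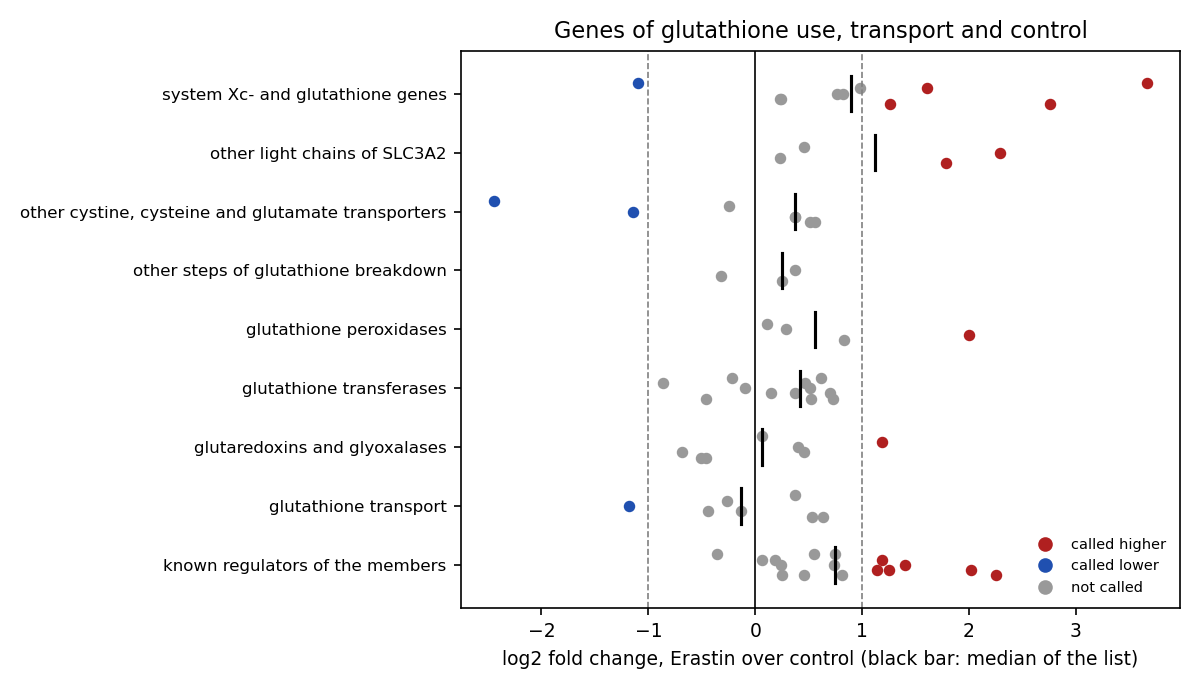
Log2 fold change, Erastin over control, of tested genes in the pathway and in 8 lists around it; each point is a gene, colour marks the call, black bars are list medians and dashed lines mark the threshold of 1. Points called higher lie among the pathway genes, light chains, regulators, peroxidases (GPX3) and glutaredoxins (GLRX2), and those called lower are GGCT, 2 glutamate transporters and ABCC3.

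Of 16 tested genes known as regulators of the 10, 6 were called higher and none lower, and the median log2 fold change was 0.74. At an adjusted p under 0.05 by edgeR and any size, 14 were higher and 1 was lower, CD44, a surface protein that also stands among the glioma markers (log2 fold change -0.36). That they regulate these genes is background knowledge, and whether they acted on the 10 genes was not tested.
ATF4, the transcription factor of the integrated stress response, had 6657 and 7747 counts in controls and 28236 and 29826 in Erastin libraries, a log2 fold change of 2.02 ± 0.0759 (SE, edgeR adjusted p = 2.09e-09). ATF3, a stress-induced factor of the same family, had 850 and 852 counts in controls and 3869 and 4197 in Erastin libraries, a log2 fold change of 2.25 ± 0.0752 (SE, edgeR adjusted p = 1.01e-09). Of 3 further genes of the list that encode C/EBP proteins, 2 were called higher. DDIT3, which encodes CHOP, had a log2 fold change of 1.40, and CEBPG, a C/EBP protein, one of 1.25 (adjusted p = 1.55e-06 and 1.60e-07 from edgeR). CEBPB, another C/EBP protein, was not called, with a log2 fold change of 0.25 (edgeR adjusted p = 0.0195).

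NFE2L2 encodes NRF2, the main activator of antioxidant genes, and KEAP1 encodes the adaptor that targets NRF2 for degradation. NFE2L2 had 1980 and 2345 counts in controls and 3390 and 3789 in Erastin libraries, a log2 fold change of 0.74 ± 0.0845 (SE, edgeR adjusted p = 2.16e-05). KEAP1 had 2158 and 2134 counts in controls and 4821 and 4879 in Erastin libraries, a log2 fold change of 1.18 ± 0.0688 (SE, edgeR adjusted p = 7.60e-08). Transcripts of both the activator and its inhibitor thus rose. MAFK, a small MAF protein that pairs with NRF2, was the sixth regulator called, with a log2 fold change of 1.14 (adjusted p = 1.33e-06 from edgeR), a call lost with glmTreat.

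Genes with a pattern like that of SLC7A11 or CHAC1 were sought by the Euclidean distance of log2 CPM, centred on each gene's mean over the 4 libraries, among 9507 tested genes whose mean CPM was 10 or more. Nearest to SLC7A11 were BTG2 (distance 0.184), H2AC6 (0.193), DKK1 (0.225), HRNR (0.244) and TXNIP (0.365). The first 4 stood at only 2.03 to 5.54 CPM in the control libraries and passed the limit on the mean through their Erastin levels. TXNIP, the thioredoxin-interacting protein, stood at 67.1 and 68.5 CPM in controls and 663 and 677 CPM in Erastin libraries. Nearest to CHAC1 were KCP (0.0901), CXCL8 (0.175), GDF15 (0.177), OSGIN1 (0.204) and DIRAS2 (0.243). GDF15, a stress-induced cytokine, stood at 74.6 and 72.5 CPM in controls and 574 and 526 CPM in Erastin libraries. With 2 groups of 2 libraries these distances mostly reflect fold changes of like size.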

How the data were processed

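RNA-seq of U87MG cells gave 4 libraries. Their values were deposited as counts for 58302 genes with no normalization, written per the file header by featureCounts 2.0.3 with the Ensembl release 90 annotation of GRCh38, while the submitters' processing notes give featureCounts 2.0.4 and HISAT2 2.1.0 and the methods htseq-count. Strand was not used, the reads of a pair were counted singly, and reads on several genes or places were left out. The deposited values were also checked for the decimals of estimated counts, and rounding changed none. PCR copies were not marked by molecular identifiers, so read totals overstate the number of molecules.

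After tests on simulated data, the groups were compared by the two-sided quasi-likelihood test of edgeR 4.0.16 under R 4.3.3, with TMM factors, a filterByExpr minimum count of 10 and Benjamini-Hochberg adjustment over 16751 genes. CPM used TMM library sizes, and TPM used the summed exon length of the table. The members and lists were chosen with earlier results of these data known. Named genes were the 10 members, up to 5 called genes per list by size of change (or the 2 with the highest TPM), GPX4, NFE2L2, KEAP1 and ATF4, and the 5 nearest genes, with a prior count of 2 for log2 CPM. MAFK, TXNIP and GDF15 as examples, CEBPB, CD44, GGT5, GSTM2, GLO1, ESD, GLRX5 and the marker genes were singled out after their values were seen. So were SLC1A2 and GPX1. Of the listed genes, 1 transferase was not matched in the table. Shared 31-base words were counted in GENCODE release 44 transcripts. The same-numbered libraries deviated from their group means with a correlation of 0.0203 across genes, so the numbers were not taken as pairs. The alternatives tried were a replicate block, glmTreat, DESeq2 1.42.0, scaling by RLE or by library totals, and a stricter filter (10 counts in each library) or none. Further ones were each library left out, and counts divided by 2 and rounded up to stand for read pairs, which were not recounted. ChIP-seq and HiChIP data were not analysed here.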

Additional observations from a re-analysis of the deposited data

How the results depend on the processing

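The fold changes of the 10 genes were computed under 12 alternatives each, and 114 of the 120 values kept their direction and their call, which needs both thresholds. The others belonged to GGCT, GGT1, GCLM and CHAC2. By adjusted p alone, outside glmTreat, GSR lost its value under 0.05 in 3 fits that left out a library and GPX4 in 1. With glmTreat, which tests against a log2 fold change of 1 and not 0, 3 of the 10 genes were called higher and 0 lower, and of the other lists 8 genes were called higher and 1 lower; adjusted p values were 0.906 for GGCT, 0.0703 for GGT1, 0.0985 for ABCC3, 0.314 for GLRX2, 0.231 for MAFK and 0.268 for SLC1A1. A gene of the other lists that was not called before was called lower in 5 settings. In 3 of these it was GGT5 (16 and 9 counts in controls, 0 and 0 under Erastin), which the low-count filter had left out, and in the 2 without control replicate 1 or Erastin replicate 2 it was GSTM2 (-1.03 and -1.14). With each library left out in turn, between 0 and 1 of the 10 genes were called lower, the fold change of GGCT ran from -1.42 to -0.84 and that of CHAC2 from -0.034 to 0.53, with the value below 0 found without control replicate 2. The log2 ratio of GCLC to GSS changed by -0.075 to 0.19 in those fits, the lowest being without control replicate 1. That of GCLC to GCLM changed by -0.22 to -0.082. The fold change of GPX3, at 23 to 157 counts, ran from 1.55 to 2.64. Library totals in place of TMM factors gave 1.03 for GCLM, which was then called. With a replicate block, the call was the same for all 10 genes, with 4 higher and 1 lower, and SLC7A11 stood at 3.67. Over all tested genes, glmTreat called 377 higher and 748 lower, against 1046 and 1564 without it. Where a group was left with 1 library, that library was assumed to vary like the other group. The causes of these changes were not tested.

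The intervals of CHAC2 and GGCT, at 84 to 253 counts, are several times as wide as those of GSS or GCLM. The parts of depth and of the spread between replicates in this were not separated. The 5 nearest genes of SLC7A11 and of CHAC1 were the same with a prior count of 0.5.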
